A study of Mus musculus with 27 samples.

Results

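Recruited alveolar macrophages taken 12 days after intratracheal lipopolysaccharide (LPS) were set against recruited macrophages taken 3 days after it. The comparison sets 6 of the 27 libraries of the series against each other, 3 on each day. It covers the 13599 of 38124 genes in the count table that passed a filter on low counts. The filter and the spread behind each p-value were taken from all 27 libraries, fitted together as 9 groups. Per the labels, C57B/6 mice aged 8 to 14 weeks had received 20 ng of LPS, a component of bacterial cell walls used to injure the lung, in 50 µL of buffered saline. Cells were washed from the airspaces and sorted, the recruited ones as negative for CD11c and positive for CD11b. Other cells serve, beyond the fit over all 27 libraries, only to place this change. They are recruited cells of days 6 and 9 after LPS, sorted in the same way, and resident macrophages of days 12 and 3. The resident cells were sorted as positive for CD11c and negative for CD11b from mice given LPS. No transgene or deletion is named for any group. Nothing in the labels ties the 3 libraries of a group to separate animals or to pools; the p-values below therefore measure the spread between these samples, and that spread may be technical.

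Resident alveolar macrophages live in the airspace, clear surfactant and renew themselves locally. After an inflammatory stimulus, neutrophils and then blood monocytes enter the airspace, and the monocytes become recruited macrophages that make cytokines, chemokines and nitric oxide. As inflammation ends, many recruited macrophages die, and those that stay can take on genes typical of resident cells. The series as a whole sets recruited against resident cells, and the comparison of day 12 with day 3 asks how the recruited population itself differed between a late and an early time.

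Levels are given in CPM, counts relative to the scaled library size, with the libraries of a group in the order of replicates 1, 2 and 3. CPM is not corrected for gene length, so levels are compared only within a gene. A change is the log2 ratio of day 12 over day 3 with its standard error, and a gene is called where edgeR's quasi-likelihood test gave an adjusted p under 0.05. "Higher", "lower", "rose" and "fell" are used of genes called in this way. Genes named by rank were drawn only from called genes whose libraries did not overlap between the days. For these genes, statements that the groups were apart describe the values and add no support. A fixed set of markers was named whether or not its groups overlapped.

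The day 12 libraries held 12539093 to 15721030 counts and the day 3 libraries 13931258 to 15537007. Of the day 12 libraries, replicate 1 stood apart from the other 2. Its 10 most counted genes took 18.29% of its counts, against 11.4% and 11.76% in day 12 replicates 2 and 3 and 8.38% to 10.03% on day 3. On the second principal component of the 12 recruited libraries it scored -20.19, against 16.41 and 17.39 for the other day 12 libraries. A chi-square statistic per degree of freedom between pairs of replicates was 106 and 114 for the pairs with replicate 1 and 16.3 for the pair without it, against 29.3 to 43.7 on day 3. Replicate 2 of day 9 was low on the same component, at -26.96. Results that rest on day 12 replicate 1 are therefore given with and without it.

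**Figure D1:**
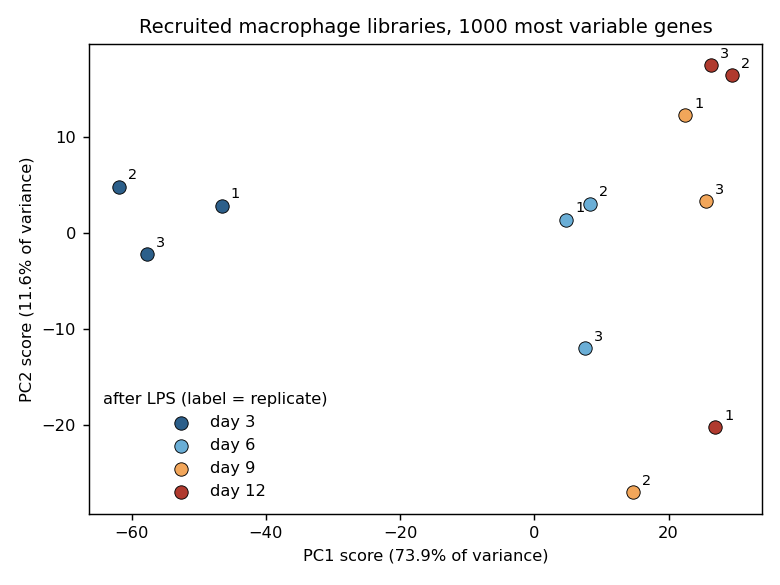
Scores of the 12 recruited macrophage libraries on the first principal component (horizontal axis) and the second (vertical axis), computed on the 1000 genes with the highest variance, of which the components hold 73.91% and 11.57%; each point is a library, coloured by day and labelled with its replicate number. Day 3 libraries lie between -46.59 and -61.81 and day 12 libraries between 26.36 and 29.42 on the first component, and day 12 replicate 1 and day 9 replicate 2 lie low on the second.

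Of the 13599 genes tested, 5348 (39.3%) were called between day 12 and day 3, with 2698 (19.8%) higher and 2650 (19.5%) lower on day 12. In a fit on the 6 libraries alone, 3897 of 12329 tested genes were called, 1930 higher and 1967 lower. A change of more than 2-fold was called for 1097 genes (8.07%), 518 higher (3.81%) and 579 lower (4.26%). For 6275 genes (46.1%) the libraries of the days did not overlap. The median change of all tested genes was 0.02 on the log2 scale. In bulk samples, fewer cells of a type and less RNA per cell cannot be told apart, so a lower level on day 12 may be either. Columns of a second deposited table carry numbers that the labels do not explain. For this report they were cut into runs of 2 to 9, 12 to 18, 19 to 28 and 34 to 53. The headers do not mark these bounds. In 2 of the runs a day 12 library stands beside a day 3 library of the same replicate number. Of the 2698 genes called higher, 2682 were higher in both of these pairs, and of the 2650 called lower, 2624 were lower in both. The libraries of these pairs are among those that gave the calls. Agreement in direction was therefore largely set by the calling and is no separate support.

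The interferon-stimulated genes, which cells switch on in answer to interferons and which code for antiviral proteins and their regulators, were lower on day 12 without exception: 35 of the 35 tested fell, with a median change of -3.79. The share of all tested genes called lower was 19.5%. Isg15, a ubiquitin-like protein, had 3.77, 2.86 and 1.89 CPM on day 12, against 187, 277 and 213 CPM on day 3. All day 12 libraries lay far below all day 3 libraries (change -6.34 ± 0.58, adjusted p = 4.74e-08). Rsad2, the antiviral enzyme viperin, had 7.27, 3.84 and 2.69 CPM on day 12 and 267, 490 and 251 CPM on day 3, a change of -6.22 ± 0.59 (adjusted p = 7.11e-08). Irf7 (ENSMUSG00000025498, GRCm38 chr7:141262706-141266481), the transcription factor that amplifies type I interferon production, had 17.2, 7.68 and 7.32 CPM on day 12 and 639, 741 and 760 CPM on day 3 (change -6.07 ± 0.69, adjusted p = 9.19e-07). Day 12 replicate 1 was the highest of the day 12 libraries for all 3 of these genes and still lay below every day 3 library. Oasl1, an oligoadenylate synthetase-like protein, fell by 5.84 ± 0.72 (adjusted p = 2.53e-06), and Ifit1, which binds viral RNA, by 5.82 ± 0.60 (adjusted p = 2.12e-07). The smallest changes of the list were those of Eif2ak2, the kinase PKR (-1.08), and Irf9, a subunit of the interferon-activated factor ISGF3 (-1.47), and its partner Stat2 changed by -1.87. Without day 12 replicate 1, 35 of 35 were again lower, with a median of -3.80.

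Many genes of this list hold a promoter element, the interferon-stimulated response element. Searched as GAAA, any 2 bases and GAAA on both strands in the window of 250 bases before to 50 after the RefSeq gene start (build GRCm38.p6), it was in 15 of the 26 list members with a promoter in the table (57.7%) and in 390 of 9894 tested genes (3.9%). The 250 bases before the start of the 2 most lowered members that hold it are shown because they carry this element. Isg15 (chr4:156200819-156201068, minus strand) holds 3 overlapping matches, and Rsad2 (chr12:26456453-26456702, minus strand) holds 1, read on the opposite strand. Capitals mark the matches, each sequence runs 5′ to 3′ along the gene, and a match is a description and not a shown binding site.
Isg15: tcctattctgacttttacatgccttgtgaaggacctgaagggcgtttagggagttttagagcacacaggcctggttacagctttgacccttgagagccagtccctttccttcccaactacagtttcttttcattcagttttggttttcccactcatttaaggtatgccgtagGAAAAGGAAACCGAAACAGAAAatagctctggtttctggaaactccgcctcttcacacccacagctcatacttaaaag
Rsad2: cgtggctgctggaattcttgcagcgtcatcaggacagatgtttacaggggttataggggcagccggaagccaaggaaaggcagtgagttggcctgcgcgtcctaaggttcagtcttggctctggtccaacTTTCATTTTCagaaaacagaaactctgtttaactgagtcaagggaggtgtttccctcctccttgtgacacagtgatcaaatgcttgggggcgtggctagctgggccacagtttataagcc

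Inflammatory mediators fell nearly as broadly. Of 38 cytokines, chemokines and their enzymes tested, 30 were lower and 2 higher on day 12, with a median change of -3.65. Nos2 (ENSMUSG00000020826, chr11:78920787-78960254), the inducible nitric oxide synthase, had 1.44, 1.68 and 2.87 CPM on day 12, against 1402, 3801 and 1946 CPM on day 3. Its libraries were more than 100-fold apart between the days, and its change of -10.19 ± 0.53 (adjusted p = 7.45e-11) was the most negative of the genes that met the naming rule. Il1b, the fever-inducing cytokine interleukin-1 beta, had 32.9, 62.3 and 87.0 CPM on day 12 and 1051, 1793 and 1267 CPM on day 3 (change -4.49 ± 0.58, adjusted p = 3.93e-06). It thus remained readily counted on day 12. Tnf had 5.75, 6.77 and 58.5 CPM on day 12 and 162, 329 and 182 CPM on day 3, a change of -3.23 ± 0.65 (adjusted p = 0.000571), and day 12 replicate 3 was the highest of its day. Without that library the change was -5.15, and in a fit on the 6 libraries alone it was not called (-3.22, adjusted p = 0.0756). Chemokines that draw T cells were among the most lowered. Cxcl10 had 1.62, 0.489 and 1.46 CPM on day 12 and 310, 627 and 426 CPM on day 3 (change -8.58 ± 0.48, adjusted p = 5.38e-11). Ccl5 had 2.78, 1.61 and 1.46 CPM on day 12 and 1190, 923 and 594 CPM on day 3 (change -8.89 ± 0.83, adjusted p = 6.43e-08), and neither gene's groups overlapped. Cxcl11 gave 1 count over the day 12 libraries and 603 over the day 3 libraries, a ratio of day 3 over day 12 of 611 (95% counting interval 109 to 24200). The annotation types Cxcl11 as a polymorphic pseudogene, and whether its RNA gave a working protein was not tested. Csf3, which drives neutrophil production, gave 1 and 531 counts, a ratio of 538 (96.2 to 21300); these intervals cover counting error only. Ccl2, which draws monocytes through CCR2, had 14.9, 1.81 and 7.02 CPM on day 12 and 133, 239 and 213 CPM on day 3 (change -4.65 ± 0.61, adjusted p = 4.6e-06). The 2 members that rose were Ccl22 (1.78) and Il18 (1.13), and Cxcl1 (-1.41) and Cxcl2 (-2.08), the neutrophil-attracting pair, were not called.

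Many of these genes answer to NF-kappaB. The sequence GGGA, any 2 bases and TTCC, searched on both strands in the same window, was in 7 of the 26 members with a promoter (26.9%) and in 169 of 9894 tested genes (1.7%). The 2 most lowered members that hold it were Cxcl10 (chr5:92348890-92349139, minus strand) with 1 match, and Cxcl3, a neutrophil-attracting chemokine that changed by -6.20 (chr5:90785851-90786100, plus strand), with 2 overlapping matches on opposite strands.
Cxcl10: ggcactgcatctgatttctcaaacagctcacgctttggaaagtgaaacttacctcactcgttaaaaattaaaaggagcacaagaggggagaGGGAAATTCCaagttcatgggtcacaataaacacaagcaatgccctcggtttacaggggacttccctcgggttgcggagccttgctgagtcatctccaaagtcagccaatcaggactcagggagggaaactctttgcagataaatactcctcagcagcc
Cxcl3: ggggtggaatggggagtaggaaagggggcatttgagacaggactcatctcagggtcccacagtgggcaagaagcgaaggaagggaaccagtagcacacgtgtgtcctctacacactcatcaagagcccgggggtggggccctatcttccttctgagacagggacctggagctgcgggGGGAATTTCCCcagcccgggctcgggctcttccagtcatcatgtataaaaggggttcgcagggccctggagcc

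Genes that restrain these signals fell with them. Of 27 feedback regulators tested, 20 were lower and 0 higher, with a median of -1.92. Socs1, which blocks cytokine receptor kinases, had 2.60, 3.42 and 3.60 CPM on day 12 and 91.1, 64.2 and 57.3 CPM on day 3 (change -4.45 ± 0.33, adjusted p = 6.41e-10). Tnfaip3, the NF-kappaB inhibitor A20, had 52.5, 61.9 and 275 CPM on day 12 and 468, 1617 and 1019 CPM on day 3 (change -2.99 ± 0.57, adjusted p = 0.00028). In both genes the groups were apart, and as with Tnf, the highest day 12 value of Tnfaip3 was in replicate 3. In a fit on the 6 libraries alone Tnfaip3 was not called (-2.98, adjusted p = 0.0524). Nfkbie, an inhibitor that holds NF-kappaB in the cytoplasm, fell by 2.93 ± 0.23 (adjusted p = 1.34e-09). Il10, the anti-inflammatory cytokine, gave 0, 0 and 2 counts on day 12 and 23, 62 and 37 counts on day 3.

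Guanylate-binding and immunity-related GTPases, which attack vacuoles of intracellular microbes and are induced by interferon-gamma, were lower in 16 of 17 genes tested, with a median of -3.10. Gbp4 had 1.62, 2.86 and 4.15 CPM on day 12 and 130, 326 and 135 CPM on day 3 (change -6.06 ± 0.52, adjusted p = 1.67e-08). Iigp1 had 7.63, 3.28 and 2.20 CPM on day 12 and 94.7, 142 and 97.4 CPM on day 3 (change -4.71 ± 0.54, adjusted p = 8.13e-07). Both were clear of overlap. Tgtp1 and Tgtp2 changed by -7.90 and -5.30, but these near-identical copies may share reads. In the MHC class I pathway, which shows peptides from inside the cell, 19 of 23 genes were lower and 0 higher, with a median of -1.69. Tap1, the peptide transporter, had 85.9, 106 and 105 CPM on day 12 and 628, 724 and 657 CPM on day 3 (change -2.76 ± 0.18, adjusted p = 7.45e-11). Psme2, a proteasome activator, had 29.0, 36.0 and 32.8 CPM on day 12 and 182, 193 and 181 CPM on day 3 (change -2.51 ± 0.15, adjusted p = 4.39e-11). The replicates of these 2 genes were close together within each day. The shared light chain B2m changed by -0.70, and the heavy chain gene H2-D1 (-0.25) was not called. Without day 12 replicate 1 both were called lower, at -1.18 for B2m (adjusted p = 0.00047) and -0.45 for H2-D1 (adjusted p = 0.035). The class Ib genes H2-Q6 (-2.43) and H2-Q7 (-2.94) are near-identical, so their split is uncertain.

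**Figure D2:**
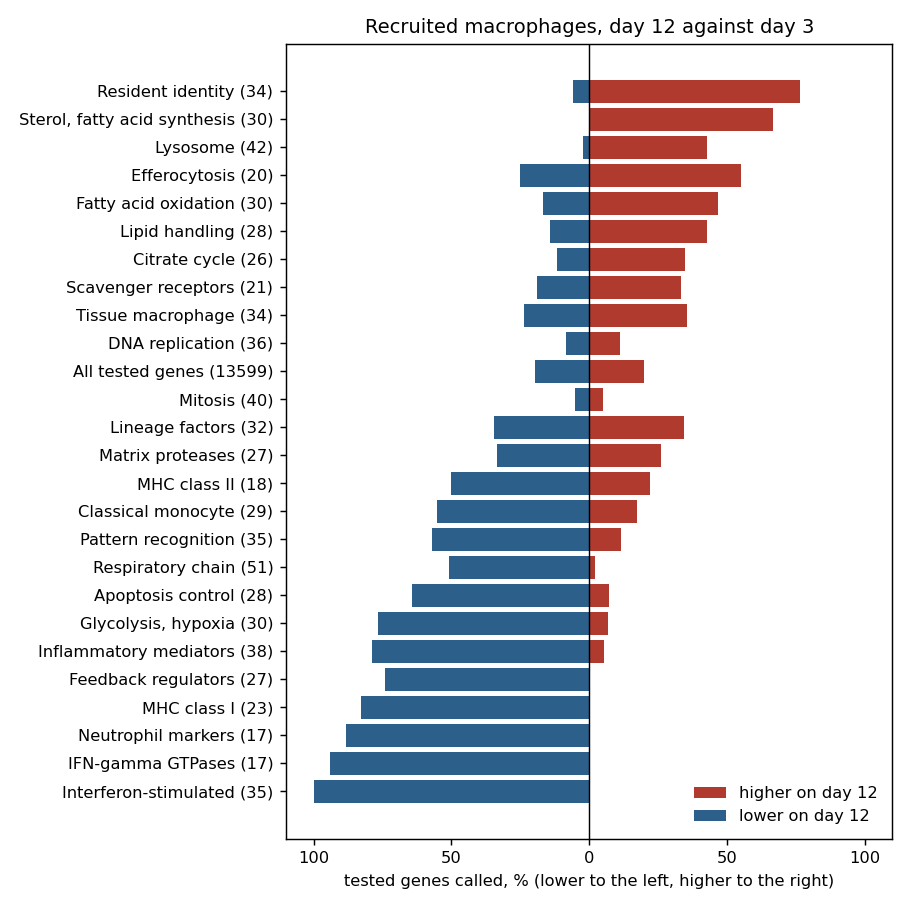
Share of the tested genes of each list, in percent, called lower on day 12 (bars to the left) and higher on day 12 (bars to the right), with the number of genes tested in brackets and all tested genes as 1 row. The interferon-stimulated list reaches 100% on the left, resident identity reaches 26 of 34 genes on the right, and all 13599 tested genes have 19.8% higher and 19.5% lower.

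Sensors of microbes were lower more than higher: 20 of 35 tested pattern recognition genes fell, 4 rose (2 without day 3 replicate 1), and the median was -0.69. Nlrp3, the inflammasome sensor, had 36.7, 63.3 and 84.0 CPM on day 12 and 233, 561 and 315 CPM on day 3 (change -2.59 ± 0.32, adjusted p = 1.64e-06). Tlr1, a receptor for bacterial lipopeptides, fell by 2.18 ± 0.42 (adjusted p = 0.000314), and Cd14, the LPS co-receptor, changed by -2.07. The LPS receptor itself, Tlr4 (0.14), and its partner Ly96 (-0.25) were not called. Mefv, the inflammasome sensor pyrin, had 3.59, 0.977 and 1.65 CPM on day 12 and 145, 218 and 188 CPM on day 3 (change -6.52 ± 0.66, adjusted p = 1.81e-07). The groups of the genes given per library here were apart.

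Classical monocyte genes, which mark cells newly come from the blood, were lower in 16 and higher in 5 of 29 tested, with a median of -1.70. Ly6c2 (ENSMUSG00000022584, chr15:75108158-75111970), the surface antigen that defines mouse inflammatory monocytes, had 37.4, 20.7 and 18.6 CPM on day 12, against 1281, 1286 and 1795 CPM on day 3 (change -5.84 ± 0.66, adjusted p = 8.39e-07). Its reads can be shared with Ly6c1, which changed by -5.06. Plac8, a small protein abundant in monocytes, had 0, 0 and 0.610 CPM on day 12 and 134, 280 and 189 CPM on day 3 (change -9.68 ± 0.62, adjusted p = 3.11e-10). No day 12 library reached the level of any day 3 library in these genes. The members that rose were Lyz2 (1.54), Smpdl3a (1.21), Fn1 (1.20), Itga4 (0.42) and Mgst1 (0.40). The summed level of the 29 genes was 79500, 41070 and 45650 CPM on day 12 and 29320, 26910 and 32310 CPM on day 3. The sum, which the most counted genes set, thus went the other way from the median. The monocyte chemokine receptors moved differently: Ccr2 had 115, 145 and 98.3 CPM on day 12 and 85.6, 149 and 147 CPM on day 3, and Cx3cr1 had 66.5, 47.1 and 24.8 CPM on day 12 and 71.8, 28.6 and 38.5 CPM on day 3. In both the groups overlapped and neither was called (changes -0.09 ± 0.42 and -0.01 ± 0.58, adjusted p = 0.885 and 0.991).

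Markers of neutrophils, which crowd the airspace early after LPS, were also lower: 15 of 17 tested fell and 0 rose. The summed level of the 20 neutrophil markers was 311.5, 422.2 and 366.2 CPM on day 12 and 1551, 2790 and 2261 CPM on day 3. Most of the day 3 sum was Lcn2, an iron-scavenging protein that macrophages also make, with 1.17, 1.19 and 6.23 CPM on day 12 and 971, 1547 and 1209 CPM on day 3 (change -8.70 ± 0.95, adjusted p = 5.03e-07). Ly6g had 0 counts in each day 12 library and 1, 4 and 1 counts on day 3, and Elane had 0 in all 6 libraries. Other markers, named after their values were seen, were well counted on day 3. Csf3r, the receptor for the neutrophil growth factor G-CSF, had 151, 144 and 155 CPM on day 12 and 314, 535 and 410 CPM on day 3. Mmp9, a gelatinase, had 0.898, 0 and 0.0610 CPM on day 12 and 23.9, 69.0 and 40.7 CPM on day 3. Il1r2, the interleukin-1 decoy receptor, had 0.269, 0.559 and 0.671 CPM on day 12 and 9.53, 44.9 and 34.4 CPM on day 3. Mmp8, another marker of the list, went the other way, with 109, 256 and 178 CPM on day 12 and 53.5, 139 and 144 CPM on day 3. Its groups overlapped and it was not called, and with Csf3r it made up most of the day 12 sum. The part of neutrophils in the day 3 levels was not tested. S100a8 had 33.6, 12.0 and 15.2 CPM on day 12 and 86.3, 188 and 202 CPM on day 3 (change -2.98 ± 0.81, adjusted p = 0.00593), and S100a9, the other subunit of calprotectin, changed by -7.24 ± 1.58 (adjusted p = 0.00146). Hdc, which makes histamine, had 0, 0 and 0.732 CPM on day 12 and 33.8, 75.8 and 38.5 CPM on day 3 (change -7.42 ± 0.87, adjusted p = 9.37e-07). Its day 12 counts all came from replicate 3, so the fitted size of this change depends on that library.

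Glycolysis and hypoxia genes were lower in 23 and higher in 2 of 30 tested, with a median of -1.21. Hk3, a hexokinase of myeloid cells, had 115, 97.2 and 102 CPM on day 12 and 626, 902 and 655 CPM on day 3 (change -2.79 ± 0.24, adjusted p = 5.16e-09). Slc16a3, the lactate exporter, had 123, 82.0 and 77.8 CPM on day 12 and 392, 431 and 505 CPM on day 3 (change -2.23 ± 0.26, adjusted p = 6.39e-07). Pgk1, a core glycolytic kinase, had 14.5, 15.2 and 13.9 CPM on day 12 and 59.4, 68.4 and 85.1 CPM on day 3 (change -2.29 ± 0.22, adjusted p = 2.38e-08). In each of these genes the days were apart. Ldha, lactate dehydrogenase (-1.80), and Slc2a1, the glucose transporter GLUT1 (-1.77), fell as well, while Vegfa, with 25.1, 31.0 and 55.1 CPM on day 12 and 63.7, 61.0 and 42.2 CPM on day 3, overlapped and was not called (-0.58 ± 0.51, adjusted p = 0.395). The members that rose were Pfkfb4 (1.82) and Aldoc (1.49). The core of the hypoxia response element, ACGTG, which also lies within the E-box TCACGTGA, was in 20 of 28 promoters of the list (71.4%) and in 2889 of 9894 tested genes (29.2%).

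Enzymes of itaconate and arginine metabolism, both known from LPS-treated macrophages, were lower as well. Acod1, the enzyme that makes itaconate, had 10.3, 9.08 and 6.96 CPM on day 12 and 2143, 3416 and 2872 CPM on day 3 (change -8.33 ± 0.79, adjusted p = 7.4e-08). Ass1, which rebuilds arginine, had 33.5, 35.3 and 33.7 CPM on day 12 and 242, 245 and 236 CPM on day 3 (change -2.82 ± 0.28, adjusted p = 8.16e-08). Both were tightly grouped within each day. Arg1, arginase 1, had 198, 15.4 and 14.0 CPM on day 12 and 662, 704 and 2179 CPM on day 3 (change -3.97 ± 1.31, adjusted p = 0.0208). Day 12 replicate 1 was more than 10-fold above the other day 12 libraries, and without it the change was -6.31 (adjusted p = 0.00421); leaving out day 12 replicate 2, day 12 replicate 3 or day 3 replicate 3 ended the call (adjusted p = 0.0798, 0.0769 and 0.075). Of 19 tested genes of arginine and polyamine metabolism, 8 were lower and 1, the polyamine acetyltransferase Sat1 (0.50), was higher.

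Respiratory chain subunits moved little: 26 of 51 were lower and 1 higher, with a median of -0.34, and the most negative change was that of Cox7a2, with 46.6, 56.1 and 55.4 CPM on day 12 and 113, 84.0 and 93.7 CPM on day 3 (-0.88 ± 0.13, adjusted p = 8.36e-06). The count of 26 fell to 16 without day 12 replicate 1, to 14 without day 3 replicate 3 and to 13 when libraries were scaled by size only. Antioxidant and oxidant enzymes were lower in 15 and higher in 4 of 33 tested. Sod2, the mitochondrial superoxide dismutase, had 124, 114 and 106 CPM on day 12 and 1145, 1349 and 1361 CPM on day 3 (change -3.49 ± 0.26, adjusted p = 7.27e-10). Gstm1, a glutathione transferase, had 245, 285 and 283 CPM on day 12 and 52, 48.4 and 34.4 CPM on day 3 (change 2.59 ± 0.22, adjusted p = 4.51e-09). These were opposite in direction, and neither gene's groups overlapped. Among 20 genes of iron handling, 11 were lower and 3 higher. Hmox1, the haem-degrading enzyme, had 329, 204 and 214 CPM on day 12 and 1235, 1470 and 1610 CPM on day 3 (change -2.53 ± 0.52, adjusted p = 0.000616), and Steap4, an iron reductase, gave 2 counts on day 12 and 482 on day 3, a ratio of day 3 over day 12 of 244 (67.3 to 2020).

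Of 28 tested genes that control apoptosis, 18 were lower and 2 higher, with a median of -0.58. The lower ones held both kinds of regulator. Fas, the death receptor, had 21.3, 20.0 and 21.5 CPM on day 12 and 46.9, 71.4 and 57.5 CPM on day 3 (change -1.48 ± 0.16, adjusted p = 1.76e-07). Cflar, which blocks death receptor signalling, had 127, 117 and 119 CPM on day 12 and 376, 591 and 373 CPM on day 3 (change -1.89 ± 0.15, adjusted p = 1.86e-09). The groups of both were apart. Bcl2, the anti-apoptotic founder of its family, was one of the 2 that rose, with 8.08, 12.5 and 13.4 CPM on day 12 and 7.57, 5.58 and 4.37 CPM on day 3 (change 0.96 ± 0.26, adjusted p = 0.00572), and the other was Casp9 (0.35).

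Genes that mark resident alveolar macrophages rose. Of 34 tested, 26 were higher and 2 lower on day 12, with a median of 1.92, and without day 12 replicate 1 the counts were 29 and 1 and the median 2.12. Siglecf (ENSMUSG00000039013, chr7:43351341-43359531), a lectin of resident cells, had 20.5, 89.2 and 76.0 CPM on day 12, against 11.8, 2.36 and 1.82 CPM on day 3. It is not among the sort markers that the labels give. Day 12 replicate 1 was the lowest of its day and day 3 replicate 1 the highest of its day, but the groups did not overlap (change 3.53 ± 0.66, adjusted p = 0.000241). Pparg (ENSMUSG00000000440, chr6:115360951-115490399), the nuclear receptor that alveolar macrophages need, had 64.2, 114 and 112 CPM on day 12 and 18.5, 25.1 and 11.5 CPM on day 3 (change 2.40 ± 0.34, adjusted p = 1.01e-05). Ear2, an eosinophil-type ribonuclease made by alveolar macrophages, had 168, 830 and 779 CPM on day 12 and 90.0, 31.5 and 29.2 CPM on day 3 (change 3.56 ± 0.65, adjusted p = 0.000192). Ltc4s, which makes the leukotriene LTC4, had 43.4, 91.2 and 88.3 CPM on day 12 and 5.74, 1.89 and 1.38 CPM on day 3 (change 4.60 ± 0.40, adjusted p = 1.77e-08). In all 4 genes replicate 1 was the lowest day 12 library. Pdlim1 had 64.1, 67.6 and 66.0 CPM on day 12 and 8.85, 5.34 and 2.77 CPM on day 3 (change 3.53 ± 0.33, adjusted p = 3.93e-08). The lower members were Slc7a2, an arginine transporter (-0.79), and Tmem26 (-3.64), and the scavenger receptor Marco (-0.67) and the chitinase-like Chil3 (0.92) were among the 6 not called. Without day 12 replicate 1 Chil3 was called higher (1.41, adjusted p = 0.0032) and Slc7a2 was not called (-0.54, adjusted p = 0.0865).

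Levels on day 12 were set beside those of resident cells. Siglecf averaged 61.9 ± 36.5 CPM in day 12 recruited cells and 521 ± 72.3 CPM in day 12 resident cells, and Pparg averaged 96.7 ± 28.1 and 172 ± 13.5 CPM in the same groups (SD, n = 3 each). Mrc1, the mannose receptor, averaged 863 ± 227 CPM in recruited cells on day 12 and 2012 ± 108 CPM in resident cells on day 12 (SD, n = 3 each). Its recruited day 12 libraries held 605, 1032 and 952 CPM, against 89.1, 28.9 and 26.1 CPM on day 3 (change 4.16 ± 0.44, adjusted p = 1.86e-07). Atp6v0d2, a subunit of the lysosomal proton pump and a resident marker, had 1124, 826 and 831 CPM on day 12 and 127, 116 and 40.6 CPM on day 3 (change 3.29 ± 0.30, adjusted p = 1.71e-08), and averaged 927 ± 170 CPM in day 12 recruited cells and 1179 ± 210 CPM in day 12 resident cells (SD, n = 3 each). These differences between populations at day 12 were not tested.

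**Figure D3:**
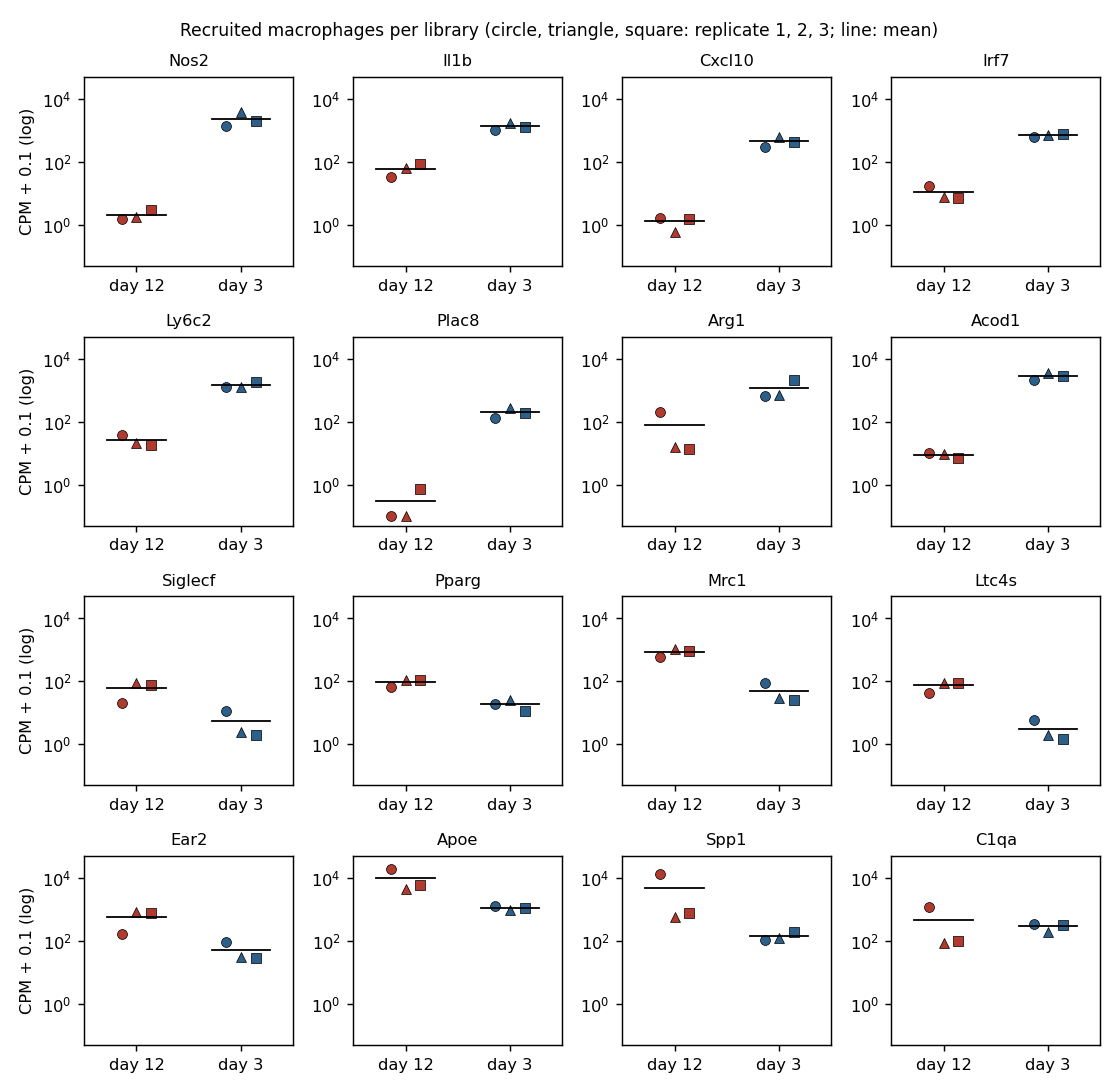
CPM of 16 genes in the 3 day 12 libraries (left in each panel) and the 3 day 3 libraries (right), on a logarithmic axis after adding 0.1; circle, triangle and square are replicates 1, 2 and 3, and the line is the mean. Nos2 to Acod1 in the upper 2 rows are lower on day 12, Siglecf to Ear2 are higher, and in Spp1 and C1qa day 12 replicate 1, at 13439 and 1239 CPM, lies far above the other day 12 libraries.

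Sterol and fatty acid synthesis genes were higher in 20 and lower in 0 of 30 tested, with a median of 1.10. Cyp51, a sterol demethylase, had 148, 118 and 110 CPM on day 12 and 22.6, 25 and 32.4 CPM on day 3 (change 2.23 ± 0.47, adjusted p = 0.000724). Elovl6, a fatty acid elongase, had 8.08, 8.24 and 5.92 CPM on day 12 and 2.16, 2.20 and 1.46 CPM on day 3 (change 1.93 ± 0.33, adjusted p = 7.09e-05). Both were clear of overlap. The list had 13 genes higher without day 12 replicate 1 and also 13 without day 3 replicate 1, with 0 lower without day 12 replicate 1. Srebf1, a transcription factor of lipid synthesis, was not called (-0.08).

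Genes that take up, store and export lipid were higher in 12 and lower in 4 of 28 tested, with a median of 0.68; without day 12 replicate 1 the counts were 9 and 5 and the median was 0.05. Lpl, lipoprotein lipase, had 1216, 1030 and 817 CPM on day 12 and 319, 204 and 272 CPM on day 3 (change 1.95 ± 0.41, adjusted p = 0.000774). Its groups were far apart and its day 12 libraries close together. Apoe, the lipid-carrying apolipoprotein E, had 19515, 4503 and 5963 CPM on day 12 and 1277, 981 and 1139 CPM on day 3 (change 3.14 ± 0.58, adjusted p = 0.000207). Replicate 1 was the highest, and without it the change was 2.23 (adjusted p = 0.0018). Fabp4, a fatty acid-binding protein of alveolar macrophages, had 53.2, 20.9 and 17.9 CPM on day 12 and 6.42, 3.53 and 2.99 CPM on day 3 (change 2.81 ± 0.64, adjusted p = 0.00157). Cd36, a scavenger receptor for oxidised lipid, had 199, 74.2 and 55.8 CPM on day 12 and 39.3, 20.9 and 31.7 CPM on day 3 (change 1.83 ± 0.53, adjusted p = 0.00913), and without replicate 1 it was not called (1.11, adjusted p = 0.0988). Abca1, a cholesterol exporter (-1.84), and Nr1h3, the sterol sensor LXR alpha (-1.14), fell, while Abcg1, another exporter, rose (1.42).

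Fatty acid oxidation genes were higher in 14 and lower in 5 of 30 tested, with a median of 0.30. Acsl1, which activates fatty acids, was among those that fell, with 174, 183 and 167 CPM on day 12 and 1049, 960 and 741 CPM on day 3 (change -2.39 ± 0.19, adjusted p = 1.59e-09). The count of 14 became 9 without day 3 replicate 2. In the citrate cycle 9 of 26 genes were higher and 3 lower, with a median of -0.08; Idh1, the cytosolic isocitrate dehydrogenase, rose by 1.22 ± 0.18 (adjusted p = 9.16e-06). Lysosomal genes were higher in 18 and lower in 1 of 42 tested, with a median of 0.37, and higher in 13 and lower in 4 without day 12 replicate 1. With the run of column numbers as a covariate, 10 were lower. Ctsd, the protease cathepsin D, had 31290, 14111 and 15170 CPM on day 12 and 7376, 6171 and 5658 CPM on day 3 (change 1.66 ± 0.32, adjusted p = 0.000244), and Ctsf, cathepsin F, rose by 2.37 ± 0.37 (adjusted p = 2.37e-05).

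Efferocytosis genes, used to eat dying cells, were higher in 11 and lower in 5 of 20 tested, with a median of 0.61, and higher in 7 and lower in 6 without day 12 replicate 1. Without day 3 replicate 2, 2 were lower. Pros1, protein S, a bridge between dying cells and the receptor MERTK, had 208, 178 and 176 CPM on day 12 and 17.2, 13.1 and 17.9 CPM on day 3 (change 3.54 ± 0.20, adjusted p = 2.64e-11). Mertk itself had 470, 396 and 448 CPM on day 12 and 153, 199 and 261 CPM on day 3 (change 1.10 ± 0.16, adjusted p = 6.49e-06). Ligand and receptor thus both lay above all day 3 libraries. Other ligands rested on 1 library: Gas6, the related bridge, had 39.4, 0.908 and 3.36 CPM on day 12 and 0.608, 0.628 and 0.291 CPM on day 3, and Mfge8, which binds phosphatidylserine, had 768, 38.7 and 53.5 CPM on day 12 and 21.9, 16.1 and 21.3 CPM on day 3. Their changes of 4.80 and 3.85 became 2.09 (adjusted p = 0.133) and 1.24 (adjusted p = 0.413) without day 12 replicate 1, and Mfge8 was also not called without day 3 replicate 1, 2 or 3 (adjusted p = 0.0581, 0.0721 and 0.0643). Stab1, a scavenger receptor, fell by 2.85 ± 0.71 (adjusted p = 0.00318).

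Genes of other tissue macrophages split by library. Of 34 tested, 12 were higher and 8 lower with a median of 0.73, but without day 12 replicate 1 the counts were 7 and 9 and the median was -0.37. Spp1, the secreted protein osteopontin, had 13439, 595 and 757 CPM on day 12 and 109, 127 and 192 CPM on day 3. All day 12 libraries were higher, and the change of 5.11 ± 1.49 (adjusted p = 0.00985) became 2.27 (adjusted p = 0.162) without replicate 1. Among growth factors, Igf1 had 218, 18.6 and 15.5 CPM on day 12 and 5.47, 3.53 and 6.70 CPM on day 3 (change 3.99, adjusted p = 0.00489; 1.72, adjusted p = 0.132 without replicate 1). C1qa, a chain of complement C1q, had 1239, 89.1 and 100 CPM on day 12 and 347, 188 and 336 CPM on day 3. It overlapped, was not called (0.71 ± 1.08, adjusted p = 0.642), and turned to -1.59 without replicate 1 (adjusted p = 0.276). Replicate 2 of day 9 showed the same genes high, with 12950 CPM of Spp1 and 1528 CPM of C1qa, against 282 and 1757 CPM of Spp1 and 155 and 227 CPM of C1qa in day 9 replicates 1 and 3. Both libraries belong to the same run of column numbers, as 17 and 18, which holds no day 3 library. Number 19 opens the next run, and that bound was set for this report. Counts assigned to no gene came to 7.03% of day 12 replicate 1 and 6.93% of day 9 replicate 2, against 9.56% to 13.02% in the other recruited libraries of days 3, 9 and 12. Ribosomal protein genes took 0.741% and 0.818% of the counts of these 2 libraries, against 0.983% to 1.74% in the same others. The resident libraries of that run, numbers 12 and 13, were alike in both measures. They had 6.77% and 7.06% assigned to no gene, against 8.08% to 12.7% in the other resident libraries. Ribosomal protein genes took 0.738% and 0.719% of their counts, against 0.870% to 1.23%. With the run as a covariate the change of Spp1 was 2.43 and that of C1qa -1.21. The part of the run in the levels of recruited day 12 replicate 1 and day 9 replicate 2 was not tested further.

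Other genes of that list were lower in every day 12 library. Cd72, an inhibitory receptor, had 3.32, 1.33 and 1.89 CPM on day 12 and 59.0, 35.0 and 48.5 CPM on day 3 (change -4.47 ± 0.57, adjusted p = 2.57e-06). Aif1, the cytoskeletal protein IBA1, had 14.2, 2.79 and 1.71 CPM on day 12 and 89.7, 89.6 and 108 CPM on day 3 (change -3.99 ± 0.85, adjusted p = 0.000846; -5.39, adjusted p = 0.000287 without replicate 1). Adgre1, the F4/80 antigen, had 816, 453 and 497 CPM on day 12 and 1269, 1307 and 1570 CPM on day 3 (change -1.23 ± 0.25, adjusted p = 0.00049), and Csf1r, the receptor for macrophage colony-stimulating factor, had 1185, 1129 and 1239 CPM on day 12 and 2340, 2216 and 2836 CPM on day 3 (change -1.06 ± 0.13, adjusted p = 5.41e-07). These macrophage-defining genes stayed well counted in all 6 libraries and were lower on day 12. Among secreted growth and repair factors 10 of 25 were higher and 3 lower, and 11 and 7 without day 12 replicate 1. The count of lower genes was 5 without day 3 replicate 3 and 8 with the run as a covariate. Pdgfc, a growth factor for fibroblasts, had 37.4, 21.1 and 17.7 CPM on day 12 and 2.03, 0.236 and 0.874 CPM on day 3 (change 4.54 ± 0.60, adjusted p = 4.89e-06), and Il1rn, the interleukin-1 receptor antagonist, had 125, 182 and 161 CPM on day 12 and 904, 1689 and 781 CPM on day 3 (change -2.85 ± 0.22, adjusted p = 1.09e-09).

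Transcription factors of the lineage divided evenly, with 11 of 32 higher, 11 lower and a median of 0.00. Irf4, a factor of alternatively activated macrophages, had 8.08, 23 and 13.9 CPM on day 12 and 2.63, 0.628 and 1.24 CPM on day 3 (change 3.30 ± 0.47, adjusted p = 7.65e-06). Rxra, the partner of Pparg, had 428, 351 and 372 CPM on day 12 and 139, 119 and 97.9 CPM on day 3 (change 1.69 ± 0.16, adjusted p = 2.42e-08). In both, the days were apart. Maf, which holds macrophages out of self-renewal, had 87.7, 17.9 and 15.6 CPM on day 12 and 117, 132 and 185 CPM on day 3 (change -1.85 ± 0.53, adjusted p = 0.00833), and without day 12 replicate 1 the change was -3.09 (adjusted p = 3.01e-05). In a fit on the 6 libraries alone Maf was not called (-1.84, adjusted p = 0.134). Spi1, the master factor PU.1, was not called (-0.22).

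The genes of the sort markers moved towards the resident pattern. Itgax (ENSMUSG00000030789, chr7:128129547-128150657), which codes for CD11c, had 1263, 1318 and 1348 CPM on day 12, against 306, 201 and 148 CPM on day 3. Every day 12 library was more than 4-fold above every day 3 library (change 2.58 ± 0.21, adjusted p = 2.69e-09), although the cells were sorted as CD11c negative. Itgam (ENSMUSG00000030786, chr7:128062640-128118491), which codes for CD11b, had 1441, 844 and 792 CPM on day 12 and 2249, 3035 and 3778 CPM on day 3 (change -1.56 ± 0.51, adjusted p = 0.0186). Its groups were apart, but leaving out day 12 replicate 2, day 12 replicate 3 or day 3 replicate 3 ended the call (adjusted p = 0.071, 0.0741 and 0.0669). In resident cells Itgax averaged 2272 ± 74.0 CPM on day 12 and 1375 ± 213 CPM on day 3, and Itgam 10.7 ± 5.52 CPM on day 12 and 398 ± 101 CPM on day 3 (SD, n = 3 each). RNA levels do not show surface protein.

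Genes of antigen presentation on MHC class II were lower in 9 and higher in 4 of 18 tested, with a median of -0.66. H2-Ab1, a class II beta chain, had 548, 465 and 433 CPM on day 12 and 2718, 974 and 751 CPM on day 3 (change -1.62 ± 0.41, adjusted p = 0.00365). The groups were apart with day 3 replicate 1 the highest, and without that library the change was -0.84 (adjusted p = 0.0635) and the count of lower genes 5. Ciita, the class II master regulator, had 17.6, 27.4 and 22.8 CPM on day 12 and 90.0, 102 and 42.7 CPM on day 3 (change -1.79 ± 0.30, adjusted p = 6.64e-05). Cd40, a receptor for T cell help, had 3.14, 3.28 and 2.69 CPM on day 12 and 95, 164 and 76.0 CPM on day 3 (change -5.20 ± 0.47, adjusted p = 2.71e-08). Ctss, the protease that trims the invariant chain, was among the 4 that rose (1.51 ± 0.22, adjusted p = 7.17e-06). Without day 12 replicate 2 or day 3 replicate 3, 1 gene was higher.

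Of 20 tested genes of the eicosanoid pathway, which makes prostaglandins and leukotrienes, 10 were higher and 6 lower. Ptgs2, the inducible cyclooxygenase COX-2, had 1.44, 0.628 and 8.36 CPM on day 12 and 97.7, 615 and 211 CPM on day 3 (change -6.40 ± 0.81, adjusted p = 6e-06). Ptges, the prostaglandin E synthase, had 9.61, 16.9 and 15.9 CPM on day 12 and 311, 422 and 364 CPM on day 3 (change -4.69 ± 0.35, adjusted p = 1.66e-09). Both lay below every day 3 library. Alox5, the first enzyme of leukotriene synthesis (2.93), Ltc4s (above), Hpgds, a synthase of prostaglandin D2 (2.13), and Hpgd, which breaks prostaglandins down (3.88), rose. Without day 12 replicate 1 Hpgds was not called (1.15, adjusted p = 0.0882). Ltb4r1, the leukotriene B4 receptor, had 5.66, 4.26 and 3.36 CPM on day 12 and 59.1, 70.1 and 86.6 CPM on day 3 (change -4.04 ± 0.30, adjusted p = 7.3e-10). Complement genes were lower in 7 and higher in 3 of 20 tested. C3, the central component, had 514, 737 and 723 CPM on day 12 and 4551, 3949 and 3130 CPM on day 3 (change -2.56 ± 0.19, adjusted p = 4.83e-10), and Cfb, factor B, had 23.4, 26.3 and 24.8 CPM on day 12 and 634, 587 and 532 CPM on day 3 (change -4.55 ± 0.52, adjusted p = 8.97e-07).

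Receptors and matrix enzymes went both ways. Of 27 cytokine and growth factor receptors 12 were lower and 5 higher. Ifnar1, a chain of the type I interferon receptor, had 113, 93.7 and 96.9 CPM on day 12 and 379, 400 and 389 CPM on day 3 (change -1.94 ± 0.12, adjusted p = 5.38e-11), and Tgfbr2, a receptor for TGF-beta, had 501, 555 and 542 CPM on day 12 and 166, 159 and 144 CPM on day 3 (change 1.77 ± 0.14, adjusted p = 1.59e-09). Their replicates were close together and the days apart. Fc receptor and phagocytosis genes were lower in 11 and higher in 1 of 18 tested, the exception being Fcgrt, the neonatal Fc receptor, with 59.2, 138 and 133 CPM on day 12 and 21.3, 9.66 and 10.6 CPM on day 3 (change 2.99 ± 0.35, adjusted p = 8.36e-07). Matrix proteases and their inhibitors were lower in 9 and higher in 7 of 27 tested. Mmp12, macrophage elastase, had 164, 192 and 145 CPM on day 12 and 27.8, 13 and 19.7 CPM on day 3 (change 3.05 ± 0.41, adjusted p = 5.94e-06). Timp2, a protease inhibitor, rose by 3.18 ± 0.52 (adjusted p = 6.73e-05), and Timp1, its relative, fell by 3.35 ± 0.79 (adjusted p = 0.00187).

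Most of the remaining genes at the top of the raised ones belong to no list here. Ephx1 (ENSMUSG00000038776, chr1:180976210-181020904), an epoxide hydrolase that detoxifies foreign compounds, had 45.8, 35.9 and 35.2 CPM on day 12, against 0.473, 0.393 and 0.146 CPM on day 3, the largest rise by the naming rule (6.81 ± 0.49, adjusted p = 7.25e-10). Gprc5c, an orphan receptor, had 16.9, 39.9 and 55.8 CPM on day 12 and 0.811, 0.393 and 0.218 CPM on day 3 (change 6.26 ± 0.61, adjusted p = 9.14e-08). Flvcr2, a membrane transporter, had 18.9, 56.3 and 66.8 CPM on day 12 and 3.92, 1.34 and 0.728 CPM on day 3 (change 4.54 ± 0.63, adjusted p = 9.37e-06). Slc6a4, the serotonin transporter, had 9.70, 30.1 and 28.9 CPM on day 12 and 2.16, 0.707 and 0.510 CPM on day 3 (change 4.31 ± 0.64, adjusted p = 2.29e-05). Gprc5c, Flvcr2 and Slc6a4 were lowest on day 12 in replicate 1, while Ephx1 was even across replicates. Mamdc2 (5.71 ± 0.56), Pianp (4.32 ± 0.83), Hr, a transcriptional corepressor (4.86 ± 0.81), and Kazald1 (4.29 ± 0.41) completed the group with adjusted p between 5.51e-08 and 0.000316. Without day 12 replicate 1 the change of Pianp was 2.86 (adjusted p = 0.00279). Cspg4, a proteoglycan, had 146, 5.58 and 5.49 CPM on day 12 and 1.15, 0.314 and 0.0728 CPM on day 3, and its change of 6.59 ± 1.52 (adjusted p = 0.00184) became 3.39 (adjusted p = 0.0463) without replicate 1. On the lowered side, Ly6a, the stem cell antigen Sca-1, had 1.71, 1.33 and 2.20 CPM on day 12 and 297, 355 and 234 CPM on day 3 (change -7.39 ± 0.79, adjusted p = 8.32e-07). Lox, which cross-links collagen, changed by -7.89 ± 1.13 (adjusted p = 1.24e-05). Edn1, the vasoconstrictor endothelin 1, gave 3 counts on day 12 and 1398 on day 3, a ratio of day 3 over day 12 of 473 (161 to 2290), and the protease Asprv1 gave 3 and 1076 counts, a ratio of 364 (124 to 1770).

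Few cell cycle genes were called in recruited cells. Of 36 tested genes of DNA replication 4 were higher and 3 lower with a median of 0.10, and of 40 mitosis genes 2 were higher and 2 lower with a median of 0.20, against 19.8% and 19.5% of all tested genes. Mki67, the proliferation marker Ki-67, was one of the exceptions, with 76.9, 45.0 and 43.6 CPM on day 12 and 198, 204 and 134 CPM on day 3 (change -1.70 ± 0.40, adjusted p = 0.00217). Mcm7, a subunit of the replicative helicase, had 21.3, 32.3 and 32.3 CPM on day 12 and 18.8, 12.2 and 14.6 CPM on day 3 (change 0.92 ± 0.18, adjusted p = 0.000349). Kif23, a motor of cell division, had 8.17, 7.26 and 7.81 CPM on day 12 and 5.61, 1.73 and 3.06 CPM on day 3 (change 1.14 ± 0.37, adjusted p = 0.0176), and was not called without day 3 replicate 2 or 3 (adjusted p = 0.0971 and 0.066). The groups of these 3 genes were apart. The cell cycle genes Anln and E2f2 also rose, and both kept the call when each of the 6 libraries was left out in turn. Their changes in those fits were 2.07 to 3.11 and 1.26 to 1.60.

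The days between show when the levels changed. Against day 6, 468 genes (3.44%) were called on day 12, 264 higher (1.94%) and 204 lower (1.5%). Against day 9 only 1 gene (0.00735%), Ltb4r1, was called by edgeR, and DESeq2 called 17. In edgeR 881 of 13599 genes had an unadjusted p under 0.05, where a share of 0.05 would be so if no gene changed. The comparisons with days 6 and 9 share the day 12 libraries with the main one. Ltb4r1 averaged 4.42 ± 1.16 CPM on day 12 and 17.3 ± 6.43 CPM on day 9 (SD, n = 3 each; change -1.97 ± 0.29, adjusted p = 0.00989). Nos2 averaged 2383, 12.5, 2.84 and 1.99 CPM on days 3, 6, 9 and 12, so most of its decline lay before day 6. Ly6c2 averaged 1454, 275, 111 and 25.5 CPM on days 3, 6, 9 and 12, and was lower on day 12 than on day 6 (-3.44, adjusted p = 0.00323). Irf7 was also lower on day 12 than on day 6 (-3.01, adjusted p = 0.0117), while Il1b (-1.03, adjusted p = 0.308) was not called. On the raised side, Itgax averaged 218, 302, 630 and 1310 CPM on days 3, 6, 9 and 12 and was higher on day 12 than on day 6 by 2.11 (adjusted p = 5e-06). Ephx1 (1.99, adjusted p = 0.00193), Mrc1 (1.57, adjusted p = 0.0312) and Atp6v0d2 (1.14, adjusted p = 0.025) were also higher on day 12 than on day 6, and Siglecf (1.66, adjusted p = 0.135) and Pparg (0.96, adjusted p = 0.107) were not called.

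**Figure D4:**
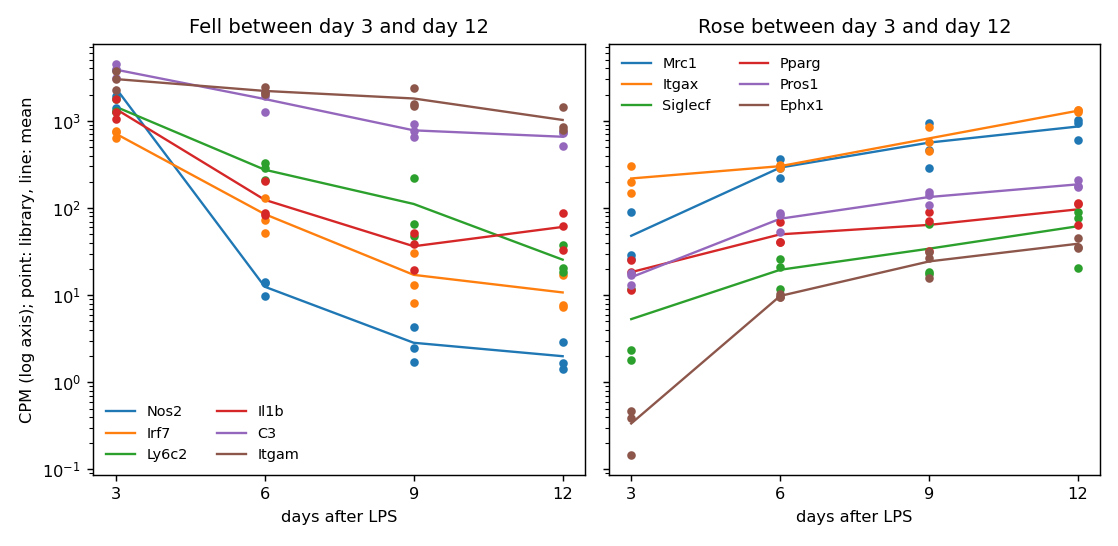
CPM of 6 genes that fell (left) and 6 that rose (right) in recruited macrophages on days 3, 6, 9 and 12 after LPS, on a logarithmic axis; points are libraries and lines join the means of 3. Nos2 falls from a mean of 2383 CPM on day 3 to 12.5 CPM on day 6, whereas Itgax rises mainly after day 6, to 1310 CPM on day 12.

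The same days were compared in resident cells, where 3289 genes (24.2%) were called, 1531 higher and 1758 lower. A test of the difference between the 2 changes called 1853 genes (13.6%), 1004 more positive (7.38%) and 849 more negative (6.24%) in recruited cells; with libraries scaled by size only the split was 1204 and 479, and that scaling moved the median difference of all genes from 0.02 to 0.14. Resident and recruited libraries of the same day and number deviated together, and with each such pair as a block 2955 genes were called, 1561 and 1394 in these directions. Interferon-stimulated genes fell in both populations, by a median of -3.79 in recruited and -1.95 in resident cells, and 19 of 35 had a more negative change in recruited cells while 0 had a more positive one. Isg15 averaged 2.84 ± 0.940 CPM on day 12 and 226 ± 45.9 CPM on day 3 in recruited cells, and 3.94 ± 0.559 CPM on day 12 and 48.3 ± 15.6 CPM on day 3 in resident cells (SD, n = 3 each; difference -2.72, adjusted p = 0.0172). The populations thus met at a low level on day 12 after a higher day 3 level in recruited cells. For inflammatory mediators the medians were -3.65 and -3.85, with 7 of 38 more negative and 2 more positive in recruited cells. Glycolysis and hypoxia genes were more negative in 14 of 30 and more positive in 1; Slc16a3 averaged 94.4 ± 25.3 CPM on day 12 and 442 ± 57.7 CPM on day 3 in recruited cells, and 91.5 ± 8.86 CPM on day 12 and 103 ± 26.6 CPM on day 3 in resident cells (SD, n = 3 each; difference -2.06, adjusted p = 0.000581).

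Resident identity genes had a more positive change in recruited cells in 13 of 34 and a more negative one in 0. Pparg (difference 2.25, adjusted p = 0.00243), Ear2 (2.85, adjusted p = 0.0298) and Mrc1, which is outside that list (3.83, adjusted p = 0.000151), were called, while Siglecf was not (2.09, adjusted p = 0.111). Siglecf was called without recruited day 12 replicate 1 (2.54, adjusted p = 0.0401) or recruited day 3 replicate 1 (3.46, adjusted p = 0.00932). DNA replication genes were lower on day 12 in 32 of 36 and mitosis genes in 28 of 40 in resident cells, and the change was more positive in recruited cells in 19 of 36 and in 8 of 40, with 0 more negative in either; in the fit with pair blocks the counts were 27 and 28. Mcm7 averaged 28.7 ± 6.38 CPM on day 12 and 15.2 ± 3.38 CPM on day 3 in recruited cells, and 59.9 ± 6.37 CPM on day 12 and 122 ± 11.9 CPM on day 3 in resident cells (SD, n = 3 each; difference 1.94, adjusted p = 3.59e-05). For Mki67, which fell in both populations, the difference was 0.13 (adjusted p = 0.911). The cell cycle element TTTGAA was in 26 of 34 mitosis promoters (76.5%) and in 14.4% of all tested genes with a promoter, and the E2F motif TTTCCCGC in 5 of 30 promoters of DNA replication genes (16.7%) and in 2.4% of all.

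Among the largest single differences, Ephx1 averaged 39.0 ± 5.93 CPM on day 12 and 0.337 ± 0.171 CPM on day 3 in recruited cells, and 16.9 ± 5.10 CPM on day 12 and 7.24 ± 2.20 CPM on day 3 in resident cells (SD, n = 3 each; difference 5.59 ± 0.61, adjusted p = 1.23e-05). Spon1, a secreted matrix protein, averaged 0.379 ± 0.0425 CPM on day 12 and 42.0 ± 11.5 CPM on day 3 in recruited cells, and 0.800 ± 0.259 CPM on day 12 and 1.49 ± 1.04 CPM on day 3 in resident cells (SD, n = 3 each; difference -5.85 ± 0.67, adjusted p = 1.23e-05). Its level on day 3 in recruited cells thus stood above the other 3 groups. Mmp12 averaged 167 ± 23.9 CPM on day 12 and 20.2 ± 7.41 CPM on day 3 in recruited cells, and 15.5 ± 9.15 CPM on day 12 and 21.7 ± 9.16 CPM on day 3 in resident cells (SD, n = 3 each; difference 3.54 ± 0.56, adjusted p = 0.000349). Itgam fell in both, with a more negative change in resident cells (difference 3.65, adjusted p = 0.00239), and Itgax rose in both, with a more positive change in recruited cells (1.86, adjusted p = 0.000168). In the fit with pair blocks, Cd36 (2.33, adjusted p = 0.0769) and Il1b (-2.24, adjusted p = 0.128) were no longer called, and Apoe (1.33, adjusted p = 0.0114), Vegfa (3.11, adjusted p = 0.000984), Adgre1 (-0.93, adjusted p = 0.00855) and Ifit1 (-2.35, adjusted p = 0.0104) were called.

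**Figure D5:**
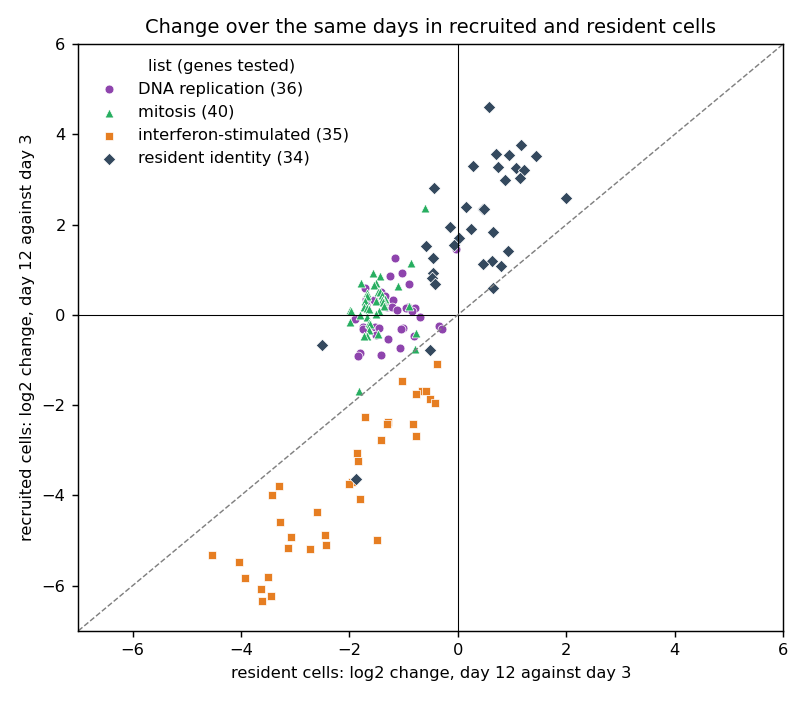
Log2 change of day 12 over day 3 in resident cells (horizontal axis) and in recruited cells (vertical axis) for the tested genes of 4 lists, 1 point per gene; the dashed line marks equal change. DNA replication and mitosis genes lie left of 0 and near 0 in height (medians -1.24 and -1.53 in resident cells, 0.10 and 0.20 in recruited cells), interferon-stimulated genes lie low with medians of -1.95 and -3.79, and resident identity genes lie high with medians of 0.47 and 1.92.

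Markers of cells that the sort should leave out were read in the same 6 libraries. T and NK cell markers, mostly Il7r and Cd2, summed to 85.5 to 205.6 CPM on day 12 and 71.08 to 143.5 CPM on day 3. Of 25 tested, 2 were higher and 6 lower. Cd3e, a chain of the T cell receptor complex, had 0.539, 0.698 and 0.793 CPM on day 12 and 1.08, 0.707 and 0.655 CPM on day 3. The sum of B cell markers was 211.2 to 245.8 CPM on day 12 and 20.25 to 50.87 CPM on day 3, nearly all of it Cd22, a lectin that rose by 2.74 ± 0.22 (adjusted p = 1.77e-09), while Pax5 and Ebf1 were at 0 in all 6 libraries. Markers of endothelium and stroma summed to 400.5 to 576.9 CPM on day 12 and 82.51 to 137.4 CPM on day 3, most of it Vwf, which rose by 3.19 ± 0.31 (adjusted p = 5.51e-08). Of the 7 tested, Vwf alone was higher and 4 were lower, and Dcn and Lum were at 0. Dendritic cell markers summed to 16.43 to 38.19 CPM on day 12 and 23.01 to 32.04 CPM on day 3, with 2 of 12 higher and 1 lower. Markers of eosinophils, basophils and mast cells, mostly Siglecf, summed to 22.54 to 94.1 CPM on day 12 and 9.103 to 26.34 CPM on day 3, and Epx, Mcpt8, Fcer1a, Gata2 and Ms4a2 were at 0. Epithelial markers, mostly Pdpn, summed to 123.4 to 358.6 CPM on day 12 and 195.8 to 362.5 CPM on day 3. Of 11 tested, 4 were higher (2 without day 12 replicate 1). Sftpc, a surfactant protein, gave 134, 20 and 8 counts on day 12 and 9, 0 and 4 on day 3. Krt8, a keratin, gave 36, 0 and 0 counts on day 12 and 5, 2 and 3 on day 3. Both were thus highest in day 12 replicate 1. Among the day 12 libraries, Sftpb, with 3.77, 0.279 and 0.610 CPM, was also highest in replicate 1. The same held for Sftpa1, Sftpd, Scgb1a1, Krt18, Ager, Aqp5, Pdpn, Muc1 and Nkx2-1, the last on 1 count. The remaining markers of the list, Epcam, Cdh1, Foxj1 and Scgb3a2, were instead lowest in replicate 1 among the day 12 libraries. Red cell markers summed to 0.279 to 0.988 CPM on day 12 and 0.219 to 2.43 CPM on day 3, and 0 of 5 were called. Whether cells of these kinds contributed to the changes above was not tested.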

How the data were processed

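RNA of sorted macrophages was sequenced in 27 libraries, 3 in each of 9 groups. The deposited table holds raw read counts per gene as the authors made them; the submitters' processing notes name STAR 2.4.0a, HTSeq 0.6.0, DESeq2 1.4.5 and the build mm10, and neither the strand option nor the annotation release is stated. Counts of reads assigned to no gene, deposited in a second table, stayed out of library sizes and were 7.03% to 11.3% on day 12 and 9.56% to 12.0% on day 3. Gene symbols were found for 36345 of 38124 identifiers in GENCODE M21, and promoters come from RefSeq (GRCm38.p6). Genes were filtered with edgeR's filterByExpr (minimum count 10, minimum total 15), scaled by TMM and fitted with edgeR 4.0.16 (quasi-likelihood F test, robust, a mean for each of the groups, fitted to the 27 libraries with 18 residual degrees of freedom), with Benjamini-Hochberg adjustment at 0.05 over the 13599 genes tested. Changes beyond 2-fold used glmTreat. DESeq2 1.42.0, library size scaling, no filter, contrast-only fits, a replicate block, the run of the column numbers and leaving out each library were the alternatives. An exact permutation test of 3 against 3 cannot go below 0.1 and was not used. The script was tested on simulated data. The members, lists and tests were chosen with earlier results of these data known. Genes were named by rank among called genes whose groups did not overlap, within each list and over all genes, with a fixed set of markers beside them; other list members and Il10 were named after their values were seen, and some genes that met the rule are not reported here. Resident and recruited libraries of the same day and number deviated together (correlations 0.42, 0.35 and 0.27 on day 3 and 0.60, 0.46 and 0.58 on day 12), so the difference between populations is also given with each pair as a block.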

Additional observations from a re-analysis of the deposited data

Results flagged for a closer look

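The change of day 12 over day 3 differed between recruited and resident cells, by the interaction test of edgeR, for 1853 genes. The values below are this difference on the log2 scale, recruited minus resident, for the named genes that passed. It was more negative in recruited cells for Spon1 (-5.85), Plekhg4 (-4.12), Ifit1bl1 (-4.08), the chemokine receptor Cxcr2 (-3.67), Timp1 (-3.51), Il1b (-2.41), H2-Ab1 (-1.96) and Csf1r (-0.69). It was more positive for Itgax (1.86), Pparg (2.25), Cd36 (2.51), Mmp12 (3.54), Itgam (3.65), H2-M2 (4.30), Thbs1 (4.40), Gprc5c (4.67), Ephx1 (5.59) and Cspg4 (5.84). H2-M2 averaged 11.2 ± 3.58 CPM on day 12 and 7.62 ± 5.87 CPM on day 3 in recruited cells, and 4.95 ± 1.81 CPM on day 12 and 66.9 ± 30.7 CPM on day 3 in resident cells (SD, n = 3 each). When each of the 12 libraries was left out in turn, the call was kept in 3 fits for Cspg4, 4 for Timp1, 4 for Il1b, 5 for Cd36, 6 for Plekhg4, 6 for H2-Ab1, 9 for Cxcr2, 9 for Thbs1 and 11 for Csf1r, with adjusted p of up to 0.279, 0.501, 0.128, 0.0888, 0.152, 0.0989, 0.0672, 0.0676 and 0.0532 in that order of genes.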

How the results depend on the processing

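Of the 182 genes that met the naming rule and are kept here 176 were called, and 144 kept direction and call in every setting run. Between day 12 and day 3, 5348 genes were called. The fit on the contrast's libraries alone gave 3897. The replicate block gave 5366 over all 27 libraries and 3273 within the contrast alone. Same-numbered day 12 and day 3 libraries did not deviate together (correlations -0.06, -0.17 and -0.03). With 3 libraries a group, these values cannot show whether such libraries share more than a number. Those of replicates 2 and 3 fall in the same runs of column numbers. Leaving out 1 library gave 4529 to 5087 calls, and 852 to 1168 beyond 2-fold against 1097. For day 12 against day 9 (1 call) the counts were 4 without a filter, 18 with the run of column numbers, 17 with DESeq2, 0 in both fits on the contrast's libraries alone, with and without the replicate block, and 0 to 11 when 1 library was left out. For day 12 against day 6 (468) they were 271, 1477, 844, 117 on the contrast's libraries, 36 there with the replicate block, and 104 to 707. The difference between populations (1853) gave 2819 with the run, 2955 with the library pair block and 1276 to 2032 when 1 library was left out, and resident cells (3289) gave 1874 to 2726. Reversed changes were those of Cx3cr1 (0.039 with library size only, 0.0085 with the replicate block, 0.0051 with DESeq2, -0.35 to 0.45 leaving out 1 library), Ccr2 (0.008 with library size only, -0.31 to 0.041), C1qa (-1.21 with the run, -0.40 with the block in the contrast, -1.59 to 1.20) and Vegfa (0.094 with the run). The reversed differences between populations were those of Cx3cr1 (-0.0072 and -0.060 with the replicate block over all libraries and in the contrast, -0.17 with pair blocks, -1.34 to 0.51) and, leaving out 1 library, Arg1 (-3.77 to 0.83), Ccl2 (-0.43 to 1.97), Tnf (-2.33 to 0.10), Nos2 (-0.83 to 0.75), Mki67 (-0.14 to 0.29), Spp1 (-1.28 to 3.51) and C1qa (-0.30 to 4.69). In fits on the contrast's libraries alone the calls of Arg1 (adjusted p = 0.087), Cd36 (0.0549), Cspg4 (0.0651), Gas6 (0.092), Igf1 (0.0735), Mfge8 (0.0909) and Spp1 (0.0586) were also lost. With the replicate block there, those of Siglecf (0.142), Ear2 (0.123), Bcl2 (0.072), Flvcr2 (0.0577), S100a8 (0.0521) and Timp1 (0.0698) were lost as well, and fewer genes were called higher in resident identity (14 against 26) and fatty acid oxidation (7 against 14) and lower in the respiratory chain (11 against 26), neutrophil markers (9 against 15) and lineage factors (6 against 11). Without a block fatty acid oxidation had 9 higher. The causes were not tested.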
